A study of Mus musculus with 6 samples.

Results

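The genes described here are 10 genes of lipid uptake and transport, namely Cd36, Scarb1, Lpl, Gpihbp1, Fabp4, Fabp5, Apoe, Abca1, Abcg1 and Plin2. They were chosen by name, with earlier results of these data known, and each was matched once among the 33697 genes of the count matrices. The cells came from the intestinal lamina propria of Flare-TSLP mice on the C57BL/6 background, kept specific pathogen-free. In these mice tdTomato reports the Tslp locus, and every library held live cells sorted for tdTomato. There were 6 single-cell RNA-seq libraries (10x Chromium 3′ v3.1), 2 of the proximal small intestine (SI; jejunum), 2 of the distal SI (ileum), 1 of the cecum and 1 of the large intestine. The study names no treatment for the mice of these libraries, and no sample sorted as reporter-negative was used. Cells were not filtered on tdTomato transcript here, and the study's removal of clusters with very few tdTomato-positive cells was not applied. Whether the cells of each class, such as the myeloid and glia-like ones, carried the reporter was not tested. By the study's methods, experiments pooled adult female and male mice. Cells of several animals were pooled in each library with hashtag antibodies, and the sources do not pair the hashtags with mice, so each library was 1 sample. Proximal 1 and 2 and distal 1 and 2 denote the replicates, and p-values measure the spread between these libraries, which may be partly technical.

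Lipids reach intestinal cells by several routes. Lipoprotein lipase hydrolyses triglycerides of circulating lipoproteins at the capillary wall, membrane receptors take up the released fatty acids and lipoprotein cholesterol, and fatty-acid-binding proteins carry fatty acids within the cell. Cholesterol leaves cells through ABC transporters to apolipoproteins, and surplus neutral lipid is stored in droplets coated by perilipins, while chylomicrons made by the gut epithelium leave the villus through lymphatic lacteals.

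The libraries held between 109675337 and 206827504 unique molecular identifiers (UMIs, single captured mRNA molecules) on genes, and between 11751 and 21299 cells passed the filters on genes, UMIs and mitochondrial share. Predicted doublets were 4.91% to 11.41% of those cells and were removed, and pairs of libraries shared 0.323% to 0.609% of the smaller library's cell barcodes. Cells were clustered without the 10 genes and without 92 other lipid genes. A cell entered a class when its cluster was named from fixed marker genes and the cell itself passed a gate on those markers. The labels say tdTomato-positive lamina propria and do not name these classes. They comprised 15281 lymphatic endothelial cells (LECs), 1253 blood endothelial cells, 1224 pericytes, 202 myeloid cells and the fibroblasts, of which 20692 were subepithelial myofibroblasts (SEMFs), 13265 trophocytes (crypt-associated Grem1+ cells) and 8396 universal (Pi16+) fibroblasts. All defining markers were raised in the blood endothelial, lymphatic, pericyte and myeloid clusters. Levels are given in CPM, that is, a gene's UMIs divided by all UMIs of a class within 1 library and scaled to 1000000, for class sums of at least 20 cells, so the blood endothelial class and trophocytes have no cecum value and the myeloid class is given in the 4 SI libraries. A level in a class sum cannot tell fewer expressing cells from less RNA per cell. Intervals and limits given here cover counting error only. Free RNA, the UMIs in barcodes with at most 100 UMIs, serves as the background. The 5 adipocyte markers summed to at most 0.868 CPM in every class, and Lep, a defining adipocyte gene, was at 0 in all of them.

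Blood endothelial cells had the highest mean level of Cd36, Scarb1, Fabp4, Abca1 and Abcg1 among the blood endothelial, lymphatic, pericyte, SEMF, trophocyte, universal fibroblast and myeloid classes. Gpihbp1 was highest in LECs, Lpl in SEMFs, and Apoe and Plin2 in myeloid cells. Fabp5 averaged 263.1 ± 82.0 CPM in blood endothelial cells (SD, n = 5) and 253 ± 308 in myeloid cells (SD, n = 4), a difference smaller than the spread of the myeloid libraries.

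**Figure D1:**
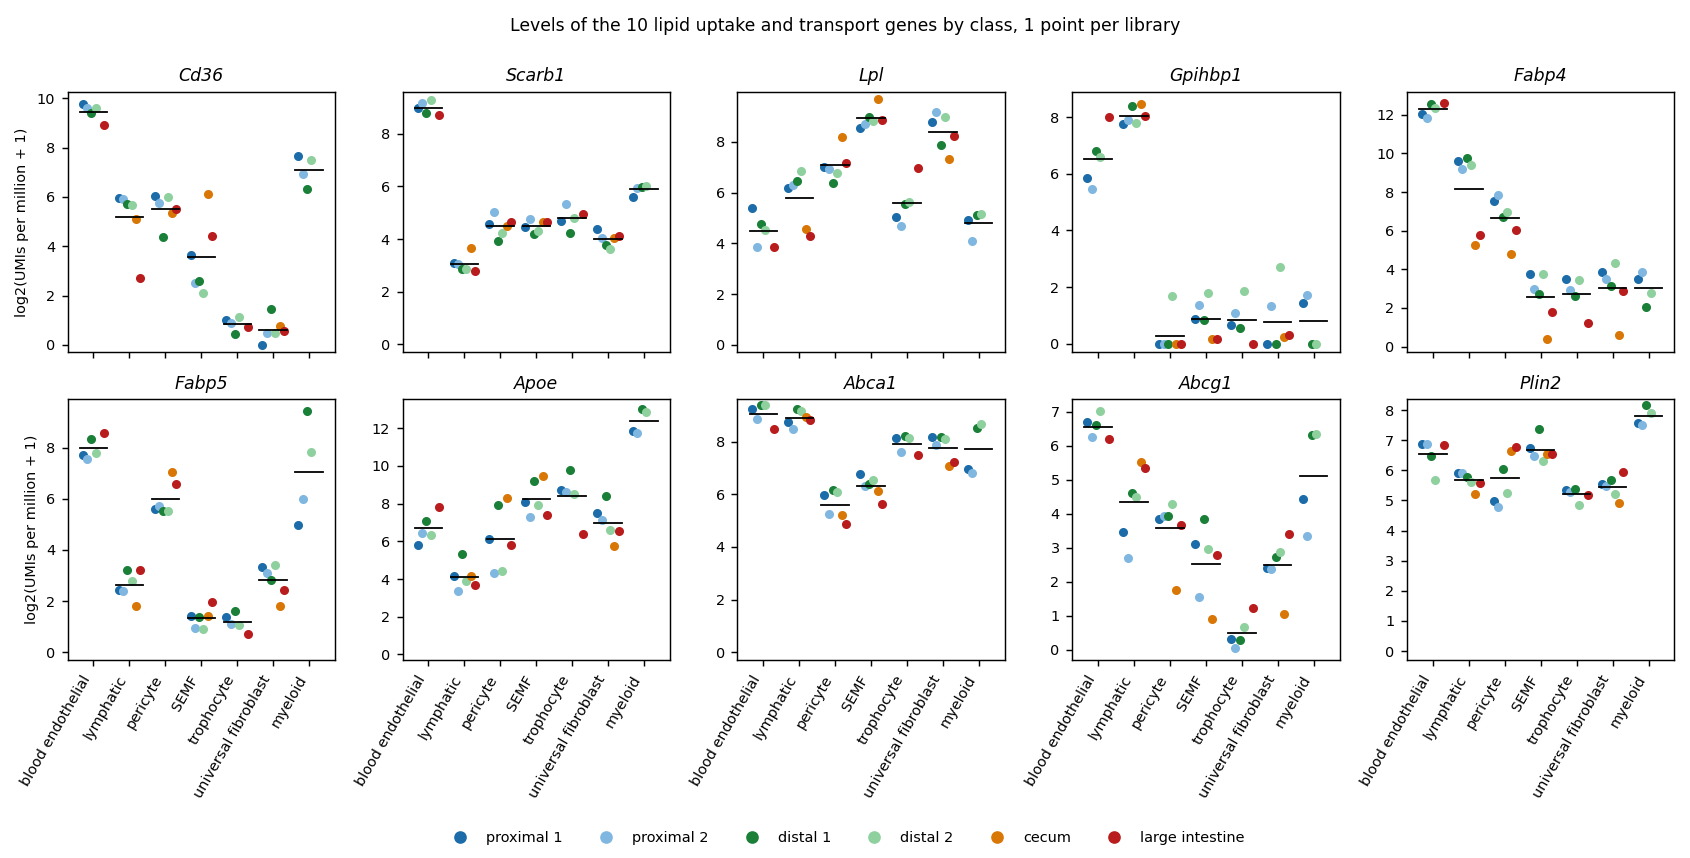
The 10 genes in 7 cell classes, with 1 point per library coloured by library, the mean as a bar, and log2(CPM + 1) on the vertical axis. Blood endothelial points lie above all lymphatic points for Cd36, Scarb1, Fabp4 and Fabp5, and lymphatic points lie above those of pericytes, fibroblasts and myeloid cells for Gpihbp1.

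Cd36, the membrane fatty acid translocase and scavenger receptor (chr5:17986432-18094067, minus strand, GRCm39), had its highest mean in blood endothelial cells and its next in myeloid cells, among the classes listed above. It measured 879, 773, 673 and 782 CPM in blood endothelial cells of proximal 1, proximal 2, distal 1 and distal 2, and 482 in those of the large intestine. LECs measured 60.4, 59.9, 52.2 and 49.7 in the same SI libraries, 33.7 in cecum and 5.52 in large intestine. The blood endothelial and lymphatic ranges did not overlap in any library. Myeloid cells measured 204, 122, 78.6 and 178, below every blood endothelial value. Pericytes measured between 19.8 and 64.6, which overlaps the LEC values. Cd36 was at most 1.17 in trophocytes and at most 1.73 in universal fibroblasts. SEMFs stood apart among fibroblasts by region, with 11.6, 4.71, 4.98 and 3.31 in the SI libraries, 68.2 in cecum and 20.2 in large intestine.

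Scarb1, the receptor that takes up cholesterol from high-density lipoprotein (chr5:125353547-125418176, minus strand), showed the sharpest contrast between the 2 endothelial classes. Blood endothelial cells measured 504, 568, 438 and 617 CPM in the SI libraries and 423 in the large intestine. LECs measured between 5.98 and 11.8 in the 6 libraries, below the myeloid range of 48.0 to 63.0. Trophocytes measured between 17.8 and 39.1, all above the LECs of the same library. No class other than the blood endothelial one of the 7 exceeded 63.0.

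Lpl encodes lipoprotein lipase, the enzyme that releases fatty acids from lipoproteins (chr8:69284603-69360100, plus strand), and was highest in SEMFs and universal fibroblasts. SEMFs measured 375, 421, 510 and 452 CPM in the SI libraries, 827 in cecum and 469 in large intestine. Universal fibroblasts measured 437, 576, 236 and 502 in the SI, 160 in cecum and 303 in large intestine, a range that overlaps that of SEMFs. Trophocytes were far lower in the SI, at 32.3, 24.5, 46.5 and 48.2, and measured 124 in the large intestine. Pericytes measured between 82.1 and 290.0. LECs measured 72.0, 78.5, 88.1 and 113.5 in the SI libraries, above the SI trophocytes, against 22.7 in cecum and 18.4 in large intestine. Blood endothelial cells held 13.5 to 41.5, and myeloid cells 16.1 to 34.4, so these classes overlapped at the low end of the order.

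Gpihbp1 encodes the endothelial protein that anchors lipoprotein lipase in capillaries (chr15:75468474-75471331, plus strand), and was found in the endothelial classes. LECs measured 212, 235, 333 and 222 CPM in the SI libraries, 353 in cecum and 264 in large intestine. Blood endothelial cells measured 56.8, 43.2, 109 and 94.4 in the SI libraries and 253 in the large intestine. The SI ranges did not overlap, while the large intestinal blood endothelial value lay among the LEC values. The pericyte, fibroblast and myeloid levels were at most 5.6. Within the blood endothelial class, the cluster led by Flt1 and Mecom (1109 cells in these 5 libraries) measured 64.2, 47.1, 157, 111 and 347 in proximal 1, proximal 2, distal 1, distal 2 and large intestine. The cluster led by Selp and Tmem252 had 0 Gpihbp1 UMIs in proximal 1, distal 1 and large intestine, the 3 libraries that held at least 20 of its cells (99 cells in all), out of 458124, 391875 and 361234 UMIs. A count of 0 of 361234 allows up to 3 UMIs.

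The fatty-acid-binding proteins followed the endothelium in different ways. Fabp4 (chr3:10268785-10273737, minus strand), an intracellular fatty acid carrier known from adipocytes, macrophages and capillaries, measured 4221, 3666, 6081 and 5205 CPM in SI blood endothelial cells and 6155 in those of the large intestine. SI LECs measured 773, 586, 864 and 678, while those of the cecum and large intestine measured 37.0 and 53.8. Pericytes measured 186, 230.3, 105 and 123 in the SI, 26.6 in cecum and 64.1 in large intestine. The 3 classes did not overlap within the SI. Free RNA held Fabp4 at 378, 283, 168 and 300.2 in the SI, 15.3 in cecum and 128 in large intestine. SEMFs reached 1.92% to 4.23% of the free RNA level and trophocytes 1.04% to 3.35%, while pericytes reached 41% to 174%, so the part of free RNA in the pericyte values was not tested beyond the subtraction given with the other processing alternatives.

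Fabp5 (chr3:10077602-10081674, plus strand), a related carrier, measured 209, 186, 325 and 222 CPM in SI blood endothelial cells and 375 in those of the large intestine, against 2.52 to 8.27 in LECs. Myeloid cells varied the most, with 30.9 and 62.0 in the proximal libraries and 698 and 223 in the distal ones. The 7 myeloid markers of that class moved the same way, summing to 4918 and 4956 CPM against 10070 and 9997, while B and plasma cell markers summed to 562, 518.5, 178 and 453. The cells in the myeloid class thus differed between these libraries, and their part in the myeloid levels of Fabp5, Apoe and Abcg1 was not tested. Pericytes measured 47.5, 52.3, 45.3 and 45.2 in the SI and rose above that range in the cecum, at 133, and the large intestine, at 95.7. Glia-like cells, present in at least 20 cells in 3 libraries, measured 589 in proximal 1, 1223 in proximal 2 and 1008 in distal 1, above every blood endothelial value.

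Apoe, the apolipoprotein that macrophages and glia secrete (chr7:19430034-19434947, minus strand), was highest in myeloid cells, at 3671 and 3414 CPM in the proximal libraries and 8474 and 7505 in the distal ones. Glia-like cells measured 2902, 2415 and 3352. Among fibroblasts, trophocytes measured 421, 394, 884 and 368 in the SI and 82.0 in the large intestine, and SEMFs 268, 155, 587 and 244 in the SI, 699 in cecum and 169 in large intestine. LECs were lowest, at 9.33 to 39.5, which was 3.09% to 4.8% of the free RNA level. Distal 1 held the highest Apoe level of the 4 SI libraries in 18 of 18 classes and clusters with a value in all 4, at the clustering used for naming, though not in every finer lymphatic subcluster, and its free RNA held 1108 CPM against 457, 302 and 287.5 in proximal 1, proximal 2 and distal 2. The part of free RNA in these Apoe levels was not tested beyond that subtraction.

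**Figure D2:**
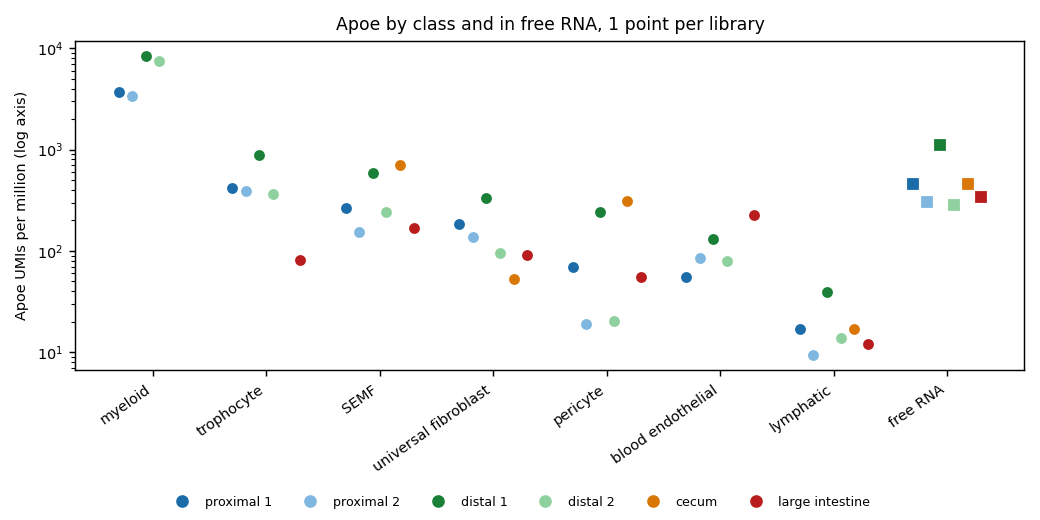
Apoe in CPM on a log axis, by class and in free RNA (squares), with 1 point per library. The green point of distal 1 lies highest among the SI libraries in each class shown and in free RNA, and LEC points lie far below those of free RNA.

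The efflux transporters differed in their spread over classes. Abca1 loads cholesterol and phospholipid onto lipid-poor apolipoprotein (chr4:53030787-53159900, minus strand). It measured 610, 461, 669 and 667 CPM in SI blood endothelial cells and 357 in those of the large intestine, and 427, 359, 600.3 and 571 in SI LECs, 491 in cecum and 451 in large intestine, so these classes overlapped. Trophocytes measured 179 to 301 and universal fibroblasts 134 to 290.0, again overlapping, and SEMFs 48.8 to 108 and pericytes 28.7 to 70.8. Abcg1 passes cholesterol to high-density lipoprotein (chr17:31276649-31336969, plus strand). It measured 103, 75.6, 96.7 and 128 in SI blood endothelial cells and 71.9 in the large intestine. Trophocytes held at most 1.32 and had the lowest mean of the 7 classes. Myeloid cells measured 20.6 and 9.18 in the proximal libraries and 78.6 and 80.2 in the distal ones.

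Plin2 coats lipid droplets in most cell types (chr4:86565912-86588459, minus strand). It measured 189, 181, 290.2 and 241 CPM in myeloid cells, above every other value among the 7 classes. SEMFs measured 106, 87.7, 164 and 78.7 in the SI and 92.3 in both the cecum and the large intestine, and blood endothelial cells 117, 117, 88.2 and 50.0 in the SI and 113 in the large intestine. LECs were narrow, between 36.2 and 59.0. None of the 10 genes overlapped another gene counted in these files, and the files list no other gene named as a copy of Fabp4, Fabp5, Plin2 or Apoe.

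Blood endothelial cells and LECs of the same 5 libraries were compared to ask how the 2 kinds of vessel differ in these genes. Of the 10 genes, 8 were higher and 2 lower in blood endothelial cells (edgeR quasi-likelihood test with the library as a block, Benjamini-Hochberg adjusted p below 0.05), where 56.2% of all 11407 genes tested were called, 28.5% higher and 27.7% lower. The median log2 fold change of the 10 genes was 2.70, against -0.01 over all genes tested. Since the genes were chosen with earlier results of these data known, this median and those of later comparisons do not test the list. Scarb1 was higher by 6.38 ± 0.12 (log2 ± SE, adjusted p = 7.21e-10 by edgeR), with 509.6 ± 83.1 CPM against 6.69 ± 0.71 (SD, n = 5). Fabp5 was higher by 5.52 ± 0.10, Cd36 by 4.18 ± 0.29 and Fabp4 by 3.42 ± 0.57, with edgeR adjusted p = 7.01e-10, 1.53e-06 and 0.000649. These 4 genes were higher in 5 of 5 libraries. Abcg1 (2.73 ± 0.34), Apoe (2.67 ± 0.31) and Plin2 (0.94 ± 0.15) were also called. Gpihbp1 was lower (log2 -1.30 ± 0.28, edgeR adjusted p = 0.00338), and so was Lpl (-1.44 ± 0.27, edgeR adjusted p = 0.00126), each in 5 of 5 libraries. In the large intestine the blood endothelial and LEC values of Gpihbp1 lay close together. The blood endothelial cluster led by Flt1 and Mecom measured 347 CPM there, above the LECs. The Abca1 call (0.31 ± 0.11, edgeR adjusted p = 0.0411) was made in 5 of 13 alternatives and lost without any 1 of the 4 SI libraries, at edgeR adjusted p = 0.0982 to 0.153. The fibroblast marker genes summed to 469.6 to 851.9 CPM in the blood endothelial class and to 446.7 to 834.8 in LECs of the same libraries. Their part in the Apoe difference was not tested.

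**Figure D3:**
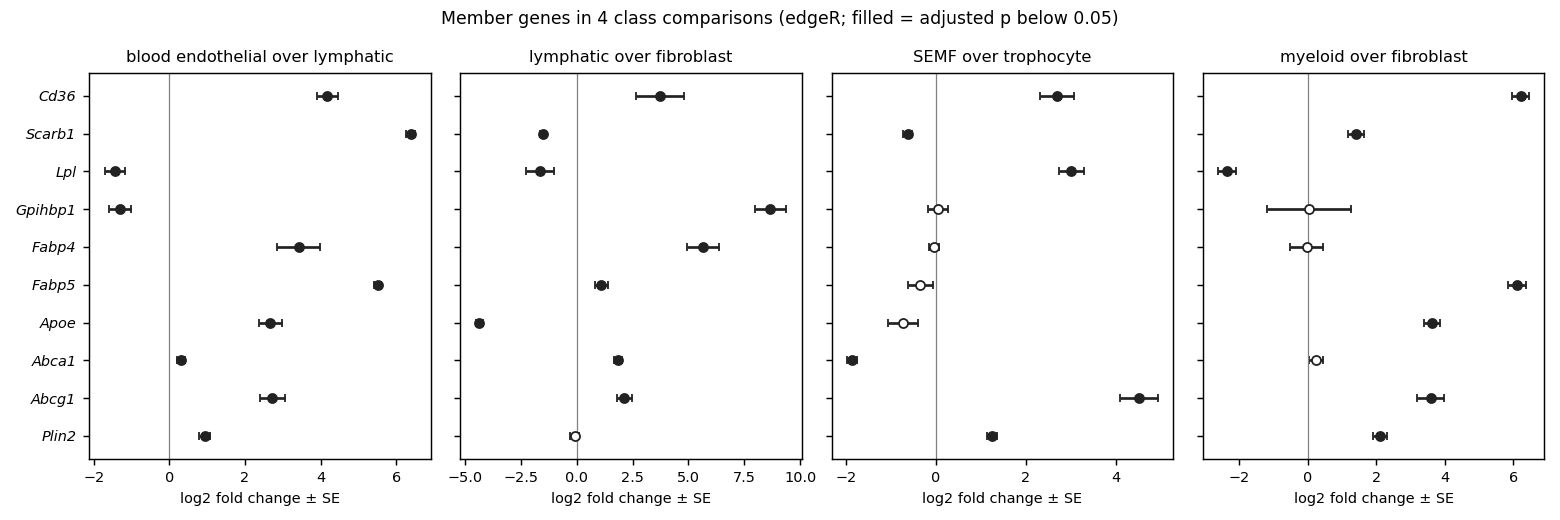
Fitted log2 fold changes with their SE for the 10 genes in 4 class comparisons, with filled points for an edgeR adjusted p below 0.05. Scarb1 and Fabp5 lie at 6.38 and 5.52 in the first panel, Gpihbp1 at 8.67 and Apoe at -4.36 in the second, and Abca1 lies below 0 and Lpl above 0 in the third.

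Of the other lipid genes, 49 of 92 were tested in this contrast, 17 higher and 15 lower in blood endothelial cells. Higher were Clu, a secreted chaperone and apolipoprotein (7.46 ± 0.36, log2 ± SE), Pltp, the phospholipid transfer protein (4.39 ± 0.19), Lipe, hormone-sensitive lipase (4.06 ± 0.11), and Mylip, a ubiquitin ligase gene (2.44 ± 0.15). Lower were Stab2 (-7.50 ± 0.22) and Stab1 (-3.25 ± 0.10), scavenger receptors of lymphatic and sinusoidal endothelium, Vldlr, the very-low-density lipoprotein receptor (-6.11 ± 0.30), and the sterol-sensing receptor gene Nr1h3 (-2.57 ± 0.13). Each of these passed edgeR at an adjusted p of 7.76e-07 or less.

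Within the capillary wall, blood endothelial cells were set against pericytes, the contractile cells around them. Of the 10 genes, 8 were higher and 1 lower in blood endothelial cells, with 55.2% of all genes tested called (27.6% higher, 27.7% lower), and the median was 3.09. Gpihbp1 (7.45 ± 0.47), Fabp4 (5.27 ± 0.37), Scarb1 (4.54 ± 0.18), Cd36 (3.85 ± 0.19) and Abca1 (3.46 ± 0.12) differed most. Lpl went the other way, with 23.4 ± 11.6 CPM in blood endothelial cells and 117 ± 23.1 in pericytes (SD, n = 5; log2 -2.32 ± 0.27, edgeR adjusted p = 5.74e-05), lower in 5 of 5 libraries. Thus the lipase transcript and the transcript of its endothelial anchor lay on opposite sides of this contrast. Apoe did not pass (1.01 ± 0.46, edgeR adjusted p = 0.0919), but did without proximal 1 (1.37, edgeR adjusted p = 0.0391) and without distal 1 (1.5, edgeR adjusted p = 0.0162), as well as with limma-voom (1.1, adjusted p = 0.0483), with no filter and with the gate alone (1.88, edgeR adjusted p = 0.000114), 5 of 13 alternatives in all. Plin2 (1.02 ± 0.32, edgeR adjusted p = 0.0213) was not called without proximal 1 (0.79, edgeR adjusted p = 0.07), without proximal 2 (0.76, edgeR adjusted p = 0.0544) or without the library block (0.92, edgeR adjusted p = 0.0529). Fibroblast markers summed to 2377, 1347, 7643 and 1922 CPM in SI pericytes, 11530 in cecum and 5225 in large intestine, and their part in the pericyte Lpl and Apoe levels was not tested. Of 44 other lipid genes tested, 13 were higher and 15 lower in blood endothelial cells. Lipe (4.58 ± 0.20), Mgll, which hydrolyses monoacylglycerol (4.40 ± 0.14), Stab1 (3.10 ± 0.33) and Mylip (1.82 ± 0.20) were higher. The fatty acid carrier Fabp3 (-5.58 ± 0.56), the droplet proteins Plin4 (-5.51 ± 0.45) and G0s2 (-3.99 ± 0.38), and the endocytic receptor Lrp1 (-3.87 ± 0.21) were lower.

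LECs and fibroblasts, the main reporter-positive classes, were compared over all 6 libraries. Of the 10 genes, 6 were higher and 3 lower in LECs, with 68.4% of all 17686 genes tested called (31.9% higher, 36.5% lower), and the median was 1.47 against -0.06 over all genes. Gpihbp1 measured 269.8 ± 59.7 against 0.919 ± 0.956 CPM (SD, n = 6; log2 8.67 ± 0.71, edgeR adjusted p = 9.94e-06). Fabp4 (5.64 ± 0.71), Abcg1 (2.14 ± 0.35) and Abca1 (1.84 ± 0.19) were higher in LECs of 6 of 6 libraries. Apoe was lower, at 18.1 ± 10.9 against 376 ± 231 (log2 -4.36 ± 0.15, edgeR adjusted p = 7.69e-08), and so was Scarb1 (-1.49 ± 0.14, edgeR adjusted p = 1.89e-05), both in 6 of 6 libraries. Plin2 did not pass (-0.09 ± 0.20, edgeR adjusted p = 0.704). Cd36 (3.71 ± 1.08, edgeR adjusted p = 0.0144) lost its call without any 1 of the 4 SI libraries, at adjusted p = 0.0512 to 0.0608 and log2 differences of 3.17 to 3.48, and after subtraction of free RNA, where the difference was greater (7.71, edgeR adjusted p = 0.0569). By the library values given for each class, Cd36 was higher in LECs in the SI, nearly level in the cecum and lower in the large intestine. Lpl (-1.64 ± 0.64, edgeR adjusted p = 0.0497) lost its call without proximal 1, proximal 2, distal 2, the cecum or the large intestine, at adjusted p = 0.0561 to 0.092, and was called in 7 of 14 alternatives. Fabp5 (1.10 ± 0.29, edgeR adjusted p = 0.00836) lost its call without distal 2 (0.83, edgeR adjusted p = 0.0576). Of the other lipid genes, 18 were higher and 36 lower in LECs of 72 tested. Higher were Stab1 (7.77 ± 0.69), Stab2 (7.21 ± 0.21), the caveolar gene Cav1 (5.06 ± 0.70) and Ch25h, which makes 25-hydroxycholesterol (2.61 ± 0.43). Lower were the carboxylesterase gene Ces1d (-5.62 ± 0.14), Lrp1 (-5.53 ± 0.15), Pltp (-4.81 ± 0.16) and the lipid-sensing receptor gene Ppara (-4.73 ± 0.37).

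Myeloid cells, a textbook site of lipid scavenging and cholesterol efflux, were set against the fibroblasts of the 4 SI libraries. Of the 10 genes, 6 were higher and 1 lower in myeloid cells, with 49.1% of all genes tested called (18.5% higher, 30.7% lower). The median over all genes was -0.53, and it was not subtracted from the differences given here. Cd36 measured 145 ± 56.3 against 1.83 ± 0.858 CPM (SD, n = 4; log2 6.21 ± 0.24). Fabp5 was higher by 6.10 ± 0.26, Apoe by 3.62 ± 0.23 and Plin2 by 2.10 ± 0.20. Abcg1 was higher by 3.60 ± 0.39 and Scarb1 by 1.41 ± 0.24, while Lpl was lower (-2.35 ± 0.25), each in 4 of 4 libraries. In this fit edgeR estimated an infinite prior degrees of freedom, and its p-values are very small. The limma-voom adjusted p were 2.16e-06 for Cd36, 0.000134 for Fabp5, 1.01e-05 for Apoe, 0.00218 for Abcg1, 0.000239 for Plin2, 0.00487 for Scarb1 and 0.00111 for Lpl. Abca1 was not called (0.23 ± 0.20, edgeR adjusted p = 0.335), and neither were Fabp4 and Gpihbp1. Without the gate on cells Gpihbp1 was called higher (2.21, edgeR adjusted p = 0.0197), as was Fabp4. Of the cells in the myeloid cluster, 39.2% passed the gate. Of 72 other lipid genes tested, 21 were higher and 24 lower, led by the scavenger receptor Msr1 (10.53 ± 0.28), Apoc2 (7.73 ± 0.71) and Stab1 (4.12 ± 0.25) among the higher, and by Ces1d (-5.25 ± 0.35), Vldlr (-4.87 ± 0.43), Cavin1 (-4.71 ± 0.29) and Fitm2 (-3.97 ± 1.00) among the lower.

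SEMFs and trophocytes were compared within the fibroblasts. Of the 10, 4 were higher and 2 lower in SEMFs, with 49.3% of all genes tested called (24.7% in each direction), so the share called among the 10 lay near the background. The median was 0 against 0.03 over all genes. Lpl measured 445 ± 50.6 against 55.0 ± 39.6 CPM (SD, n = 5; log2 3.00 ± 0.28, edgeR adjusted p = 0.000273), Abcg1 7.12 ± 4.06 against 0.484 ± 0.509 (4.50 ± 0.42, edgeR adjusted p = 0.000279), and Cd36 8.96 ± 7.06 against 0.819 ± 0.312 (2.69 ± 0.37, edgeR adjusted p = 0.00132). Plin2 was also higher (1.24 ± 0.12). All 4 were higher in 5 of 5 libraries, and Abcg1 lost its call with the gate alone (1.33, edgeR adjusted p = 0.28). Abca1 measured 82.5 ± 21.8 in SEMFs and 248 ± 56.8 in trophocytes (-1.86 ± 0.11, edgeR adjusted p = 3.78e-05), and Scarb1 was lower as well (-0.62 ± 0.10), each in 5 of 5 libraries. The 2 efflux transporters thus differed in opposite directions between these classes. Apoe was not called (-0.73 ± 0.34, edgeR adjusted p = 0.116) but was called without the large intestine (-1.13, edgeR adjusted p = 0.000709). Fabp5 was likewise not called (-0.34 ± 0.28, edgeR adjusted p = 0.348) but was called lower in SEMFs without the large intestine (-0.56, edgeR adjusted p = 0.0305). Of 65 other lipid genes tested, 19 were higher and 22 lower. Vldlr was lower in SEMFs, at 3.05 ± 1.29 CPM against 158 ± 77.4 in trophocytes (SD, n = 5; log2 -5.82 ± 0.23), followed by Mgll (-3.03 ± 0.52), the triglyceride-forming Dgat2 (-2.72 ± 0.32) and Abca2 (-1.48 ± 0.09). Higher were Ch25h (3.43 ± 0.27), Clu (2.07 ± 0.38) and Fabp2 (3.50 ± 0.61), which is also an abundant enterocyte transcript. Fabp2 ran from 0.244 to 75.15 CPM in SEMFs and from 0 to 1.88 in trophocytes, so the ranges overlapped. The enterocyte markers, which include Fabp2, summed to 60.3, 9.84, 90.2 and 18.2 CPM in SI SEMFs. SI trophocytes held 3.59, 3.25, 2.44 and 1.60, and the large intestine 0.301 in SEMFs and 0.662 in trophocytes. Their part in the Fabp2 difference was not tested.

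Universal fibroblasts differed from trophocytes in 6 of the 8 genes that could be tested, 4 higher and 2 lower, where 18.6% of all genes tested were called, 9.45% higher and 9.14% lower. Cd36 and Gpihbp1 did not pass the filter on low counts. Abcg1 (4.16 ± 0.42), Lpl (3.04 ± 0.39) and Fabp5 (2.36 ± 0.29) were higher in 5 of 5 libraries, with edgeR adjusted p = 0.000153, 0.000552 and 0.000403. When cells were taken by the gate alone, without clusters, 7 genes could be tested and 0 were called higher, with Lpl at 0.5 (edgeR adjusted p = 0.144), Fabp5 at 0.21 (edgeR adjusted p = 0.645) and Abcg1 not tested. After subtraction of free RNA, Fabp5 could not be tested, and Abcg1 and Lpl were the 2 called higher. Apoe (-1.29 ± 0.25) and Scarb1 (-0.93 ± 0.16) were lower, Scarb1 in 5 of 5 libraries and Apoe in 4 of 5, and Apoe was not called without the library block (-1.46, edgeR adjusted p = 0.102). The Fabp4 call (0.67 ± 0.19, edgeR adjusted p = 0.037) was made in 5 of 12 alternatives and lost without proximal 2, distal 1 or distal 2 (edgeR adjusted p = 0.0957, 0.056 and 0.15). Abca1 did not pass (-0.07 ± 0.08, edgeR adjusted p = 0.607), with 248 ± 59.5 against 248 ± 56.8 CPM (SD, n = 5). Of 58 other lipid genes tested, 7 were higher and 11 lower. Higher were Clu (3.12 ± 0.26), Apod (2.63 ± 0.33), the sterol-esterifying Soat1 (0.63 ± 0.10) and Nr1h3 (0.53 ± 0.10), and lower were Mgll (-1.59 ± 0.18), Dgat2 (-1.33 ± 0.25) and Vldlr (-0.94 ± 0.07).

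The fibroblast clusters divided these classes further, as a description with no test. The SEMF clusters were split by region. Those led by Itga8 and by Frmd5 came from the SI, and those led by Sox6, by Tafa1 and by Ccl8 came from the large bowel. Lpl measured 977.5 in cecum and 656 in large intestine in the Tafa1 cluster, against 300.2 and 278 in the Sox6 cluster. Cd36 was 106.5 and 34.8 in the Tafa1 cluster, while Plin2 was 439.7 and 139.5 in the Sox6 cluster against 51.5 and 45.1 in the Tafa1 cluster. The high values of the fatty acid receptor and the lipase, and those of the droplet coat, were therefore in different clusters of the same libraries. Within the universal fibroblasts, Lpl measured 305 and 372 in the cluster led by Inmt and Vit and 126 and 154 in that led by Has1 and Ccn5, in the cecum and large intestine. An unnamed SI cluster led by Scg2 and Gm4956 held Abcg1 at 86.7, 109, 77.8 and 102 CPM, and an unnamed large bowel cluster led by Zfp804b held it at 57.0 and 93.8, both within or near the blood endothelial range and above all values of SEMFs and trophocytes. Apoe in the Scg2 cluster was 22.0, 23.5, 38.9 and 11.6, below the trophocyte value of each of these libraries.

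**Figure D4:**
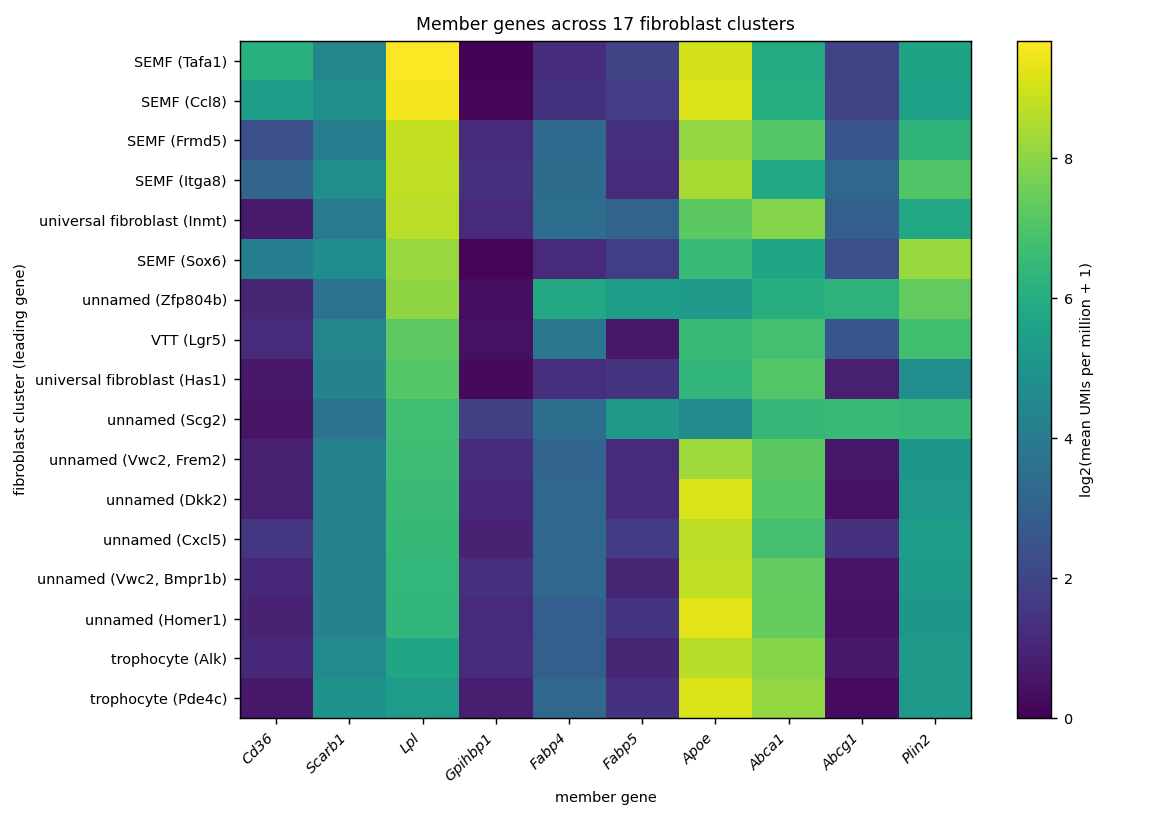
Mean levels of the 10 genes, as log2(CPM + 1) by colour, in each fibroblast cluster, named by class and leading genes. Lpl is brightest in the SEMF clusters led by Tafa1 and Ccl8 and dimmest in the trophocyte clusters, Apoe is dimmest in the Scg2 and Zfp804b clusters, and Abcg1 is brightest in those same clusters.

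Along the SI, proximal and distal libraries were compared within LECs, trophocytes and SEMFs. None of the 10 genes was called in LECs (0% of all genes called by edgeR, 651 at an unadjusted p below 0.05, and 31 genes by DESeq2), in trophocytes (0.251%) or in SEMFs (0%, with 458 genes unadjusted and 39 by DESeq2). Libraries with the same replicate number carried the same hashtag set, and with that number as a block 3 of the 10 genes were called in LECs, 1 in trophocytes and 2 in SEMFs, all lower in the proximal libraries, where that block called 1.57%, 3.35% and 2.91% of all genes tested (0.735%, 1.6% and 1.59% higher, 0.839%, 1.75% and 1.32% lower). In LECs, Abcg1 measured 10.0 and 5.53 CPM in the proximal libraries and 23.3 and 21.5 in the distal ones, a difference of -1.54 ± 0.26 (log2, proximal over distal, edgeR adjusted p = 0.287) that DESeq2 called (adjusted p = 0.000308), as did 6 of 12 alternatives in all. Abca1 measured 427 and 359 against 600.3 and 571 (-0.56 ± 0.16, edgeR adjusted p = 0.909). Proximal and distal LEC values did not overlap for either transporter, nor for Cd36 and Lpl, whose values are given above. The share of all genes without overlap is not given here. Fabp4 overlapped between the regions of the SI (-0.16 ± 0.20, edgeR adjusted p = 1). In trophocytes, Lpl was lower in the proximal libraries, at 32.3 and 24.5 against 46.5 and 48.2 (-0.74 ± 0.18, edgeR adjusted p = 0.272), without passing the test.

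The cecum and large intestine together were then compared with the SI. These are 1 library each, all 3 of their classes came from the same libraries, and the cells within a class differed between regions, so region, library and the makeup of a class cannot be told apart. In LECs, 3 of the 10 genes were called lower in the large bowel and 0 higher, where 21.7% of all genes tested were called, 10.5% higher and 11.2% lower. Fabp4 fell from 725 ± 120 (SD, n = 4) to 37.0 in cecum and 53.8 in large intestine (log2 -3.99 ± 0.23, edgeR adjusted p = 7.37e-06). Lpl fell from 88.0 ± 18.2 (SD, n = 4) to 22.7 and 18.4 (-2.16 ± 0.25, edgeR adjusted p = 0.000396). Cd36 fell from 55.6 ± 5.42 (SD, n = 4) to 33.7 and 5.52 (-1.77 ± 0.44, edgeR adjusted p = 0.0199), a call that was lost without the large intestine (-0.78, edgeR adjusted p = 0.0719) and with DESeq2. Against the SI libraries that shared the hashtag set of the cecum and large intestine alone, the 3 differences were -4.14, -1.98 and -1.75 for Fabp4, Lpl and Cd36. Abcg1 measured 10.0, 5.53, 23.3 and 21.5 in the SI, 44.6 in cecum and 39.99 in large intestine over all LECs (1.54 ± 0.54, edgeR adjusted p = 0.0658). It was called higher in 5 of 14 alternatives, among them the shared hashtag set (1.45, edgeR adjusted p = 0.0046) and the fits without proximal 2, distal 1 or distal 2. Plin2 was not called (-0.4, edgeR adjusted p = 0.0962) but was after subtraction of free RNA (-0.6, edgeR adjusted p = 0.0309) and with no filter (-0.48, edgeR adjusted p = 0.0434). Gpihbp1 (0.29 ± 0.20) and Abca1 (-0.07 ± 0.20) did not pass, at edgeR adjusted p = 0.339 and 0.849. Thus the carrier and the lipase transcripts were low in large bowel LECs while that of the lipase anchor was not detectably lower.

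Most large bowel LECs belonged to a subcluster led by Stmn2 and Nts, with 185 of 227 cells in the cecum and 181 of 252 in the large intestine, against 20 to 31 cells per SI library. Within that subcluster Fabp4 measured 1138, 1494, 731 and 2583 CPM in the SI libraries, 42.3 in cecum and 50.9 in large intestine. In the subcluster led by Scn3a and Sorcs1, with 22 cells in cecum and 23 in large intestine, Fabp4 was 33.5 and 82.8 against 595 to 984 in the SI. In these subclusters the large bowel Fabp4 values lay below every SI value, without a test. The SI Stmn2 sums, in library order, held Scarb1 at 0, 8.2, 5.5 and 35.6 CPM and Fabp5 at 7.85, 12.3, 16.5 and 35.6. Each of these rests on at most 7 UMIs. Gpihbp1 was at 94.2, 98.2, 253 and 55.9 there. The part of blood endothelial cells in these sums was not tested. For Lpl the Stmn2 subcluster held 62.8, 32.7, 110.0 and 30.5 in the SI against 21.7 and 20.9, on 6 to 20 UMIs per SI library. Cd36 overlapped between the regions there, at 149, 331.5, 33.0 and 193 in the SI, 36.9 in cecum and 6.53 in large intestine. In the Scn3a subcluster Cd36 was 65.1 to 99.1 in the SI, 26.8 in cecum and 0 in large intestine. Abcg1 overlapped between the regions within the Stmn2 subcluster, at 15.7, 12.3, 38.5 and 40.7 in the SI on 2 to 8 UMIs per library, 40.2 in cecum and 40.5 in large intestine. It did not overlap in the Scn3a subcluster, at 8.98, 4.76, 13.95 and 16.7 in the SI against 80.4 in cecum and 27.6 in large intestine, on 12 and 7 UMIs. In the subcluster led by Tll1 it was 5.26 to 24.9 in the SI and 52.0 in large intestine. Blood endothelial cells of the large intestine held Fabp4 at 6155, against 3666 to 6081 in the SI. Pericytes of the cecum and large intestine held less Fabp4 than those of every SI library. Free RNA of the cecum held less Fabp4, 15.3 CPM, than that of every SI library.

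In all fibroblasts pooled, 5 of the 10 genes were higher and 1 lower in the large bowel, where 29.9% of all genes tested were called, 15.7% higher and 14.2% lower. Lpl measured 114, 177, 96.7 and 204 in the SI libraries, 469.6 in cecum and 416 in large intestine (1.65 ± 0.27, edgeR adjusted p = 0.00643). Cd36 measured 2.97, 1.85, 0.909 and 1.58 in the SI, 31.3 in cecum and 14.5 in large intestine (3.73 ± 0.46, edgeR adjusted p = 0.00293). Fabp5 (1.5 ± 0.21), Abcg1 (1.58 ± 0.42) and Plin2 (0.77 ± 0.16) were higher as well, with edgeR adjusted p = 0.00426, 0.0302 and 0.0128. Gpihbp1, at 1.30 ± 0.970 in the SI and 0.156 ± 0.00595 in the large bowel, was lower (-2.96 ± 0.77, edgeR adjusted p = 0.0274), and lost its call without the cecum, the large intestine or proximal 2 (edgeR adjusted p = 0.107, 0.107 and 0.0575) and with limma-voom (-2.61, adjusted p = 0.0641). After subtraction of free RNA it could not be tested. The summed LEC markers in SI fibroblasts were 20.6 to 125 CPM, against 16.7 in cecum and 28.5 in large intestine, and their part in this Gpihbp1 difference was not tested. Abca1 measured 174 ± 44.3 in the SI (SD, n = 4), 101 in cecum and 72.0 in large intestine (-0.97 ± 0.31, edgeR adjusted p = 0.0502), just outside the threshold, and was called lower in 8 of 14 alternatives. Abcg1 lost its call without the large intestine, proximal 2 or distal 2 (edgeR adjusted p = 0.181, 0.0732 and 0.0534), and Plin2 without the large intestine (edgeR adjusted p = 0.0558). Within the shared hashtag set the differences were 2.07 for Lpl, 3.60 for Cd36 and 1.35 for Fabp5, all called, and 1.54 for Abcg1 and 0.68 for Plin2, not called. Within the named classes these genes were not uniformly higher in the large bowel. SEMFs held Abcg1 at 1.94 to 13.3 CPM in the SI, 0.861 in cecum and 5.97 in large intestine, and Plin2 at 78.7 to 164 in the SI and 92.3 in both large bowel libraries. Universal fibroblasts held Fabp5 at 6.06 to 9.597 in the SI, 2.51 in cecum and 4.38 in large intestine, while SEMFs held it at 0.897 to 1.64 in the SI, 1.65 in cecum and 2.87 in large intestine. Among clusters of the large bowel, the unnamed one led by Zfp804b held the most Abcg1, as given above. The share of SEMFs among the fibroblasts differed between libraries, as given with the interaction test, and its part in these differences was not tested.

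In pericytes, 3 of the 9 genes tested were higher and 1 lower in the large bowel, where 12.8% of all genes tested were called, 6.84% higher and 5.97% lower. Plin2 measured 30.4, 26.4, 65.1 and 36.8 in the SI, 97.9 in cecum and 107.5 in large intestine (1.57 ± 0.26, edgeR adjusted p = 0.00559). Fabp5 rose by 1.28 ± 0.19 (edgeR adjusted p = 0.00313) and Fabp4 fell by 1.73 ± 0.38 on the log2 scale (edgeR adjusted p = 0.0164), a call lost without the cecum (-1.36, edgeR adjusted p = 0.0925). Apoe (1.42, edgeR adjusted p = 0.308) and Abca1 (-0.82, edgeR adjusted p = 0.0762) were not called, but each was in 3 of 14 alternatives. The Lpl call (0.97 ± 0.27, edgeR adjusted p = 0.04) was made in 7 of 14 alternatives and lost without the cecum (0.35, edgeR adjusted p = 0.444), proximal 1, proximal 2 or distal 2. Within the shared hashtag set Fabp5 stayed called (1.32, edgeR adjusted p = 0.0371), while Plin2 (1.30), Fabp4 (-1.60) and Lpl (1.03) did not pass. Pericytes of the cecum had the highest sum of fibroblast markers, as given above, and its part in these values was not tested.

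**Figure D5:**
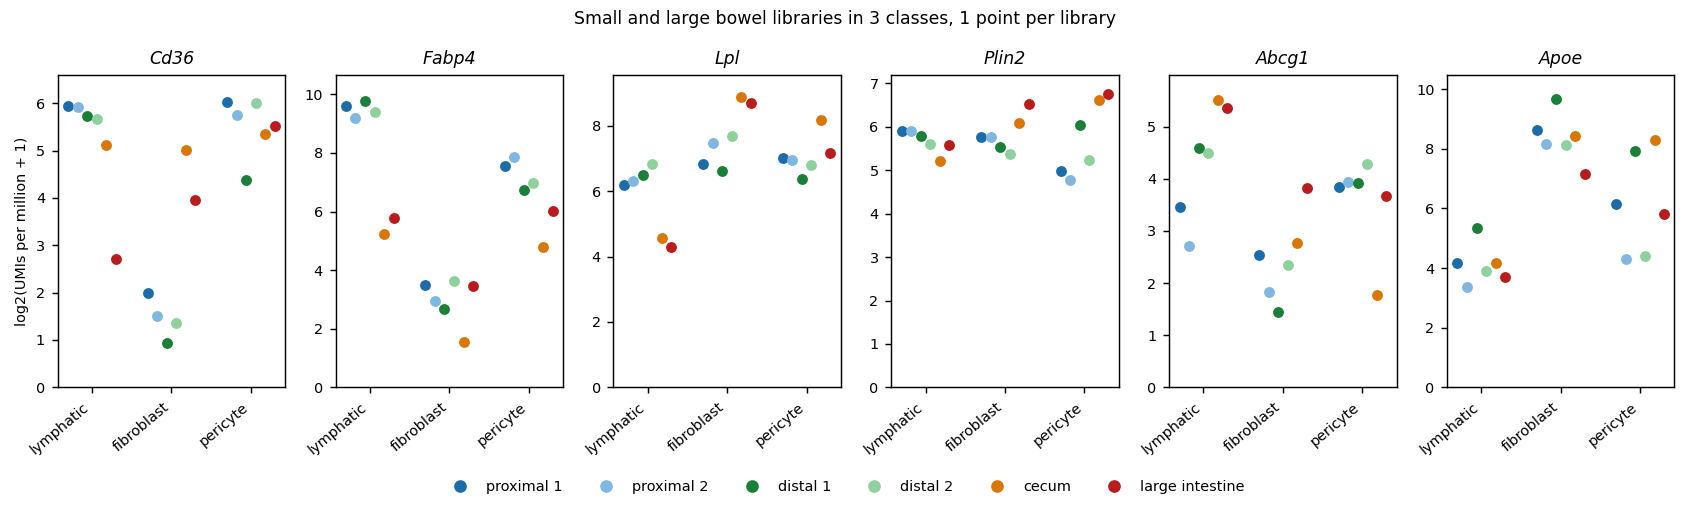
Levels by region in LECs, fibroblasts and pericytes for 6 of the genes, as log2(CPM + 1) with 1 point per library and a vertical axis from 0. Fabp4 and Lpl of LECs are lowest in the cecum and large intestine, while fibroblast Lpl and pericyte Plin2 are highest there.

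Whether the region difference itself depended on the class was tested by an interaction term across all genes, a test chosen after the data were seen. Between fibroblasts and LECs, 10.1% of all genes were called. The signed log2 change from SI to large bowel was higher in fibroblasts than in LECs for Cd36 by 5.54 ± 0.44 (log2 ± SE, edgeR adjusted p = 0.000298) and for Lpl by 3.84 ± 0.26 (edgeR adjusted p = 0.000158). The same held for Fabp4 by 3.46 ± 0.51 (edgeR adjusted p = 0.00458) and for Plin2 by 1.25 ± 0.11 (edgeR adjusted p = 0.000448). These differences are signed, and Fabp4 fell in LECs, so they do not tell which class changed more. Fabp5 did not pass (1.49, edgeR adjusted p = 0.0593) and was called in 5 of 11 alternatives. For Cd36 and Lpl the pooled fibroblasts and LECs moved in opposite directions. The fibroblast side is a pooled value. SEMFs were 1832 of 11378 fibroblasts in proximal 1, 2725 of 9228 in proximal 2, 1004 of 17256 in distal 1 and 2434 of 9355 in distal 2, against 5628 of 12380 in cecum and 7069 of 9980 in large intestine. Within classes Lpl was not uniformly higher in the large bowel, since universal fibroblasts measured 160 and 303 there against 236 to 576 in the SI, and large intestinal SEMFs, at 469, lay inside their SI range of 375 to 510. Between pericytes and LECs, with 5.81% of genes called, Lpl (3.02 ± 0.31), Fabp4 (2.27 ± 0.42) and Plin2 (2.03 ± 0.32) differed upward and Abcg1 (-2.43 ± 0.59) downward. Abcg1 was called there in 4 of 11 alternatives, and both Fabp4 calls were lost without the large intestine.

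Of the other lipid genes, 8 were higher and 6 lower in large bowel LECs of 58 tested, 13 and 10 in fibroblasts of 77, and 6 and 3 in pericytes of 52. These are 24.1%, 29.9% and 17.3% of the genes tested, near the 21.7%, 29.9% and 12.8% called over all genes. Vldlr was lower in the large bowel in all 3 classes, with log2 differences of -1.95 ± 0.14 in LECs, -2.75 ± 0.53 in fibroblasts and -1.71 ± 0.49 in pericytes (edgeR adjusted p = 2.06e-05, 0.011 and 0.0445). Stab1 was lower in fibroblasts (-3.55 ± 0.76), at 6.22 ± 4.02 CPM in the SI (SD, n = 4) and 0.425 to 0.572 in the large bowel against 543 ± 104 in LECs (SD, n = 6), and in pericytes (-2.68 ± 0.75). The 6 LEC markers summed to 20.6 to 125 CPM in SI fibroblasts, 16.7 in those of the cecum and 28.5 in those of the large intestine, and to 17.0 to 138.5, 197 and 16.0 in pericytes, and their part in the Stab1 differences was not tested. In LECs, Stab2 (-1.44 ± 0.35) and Msr1 (-4.53 ± 0.93) were lower. Clu was higher in LECs (3.34 ± 0.64) and fibroblasts (2.99 ± 0.21). Fibroblasts also rose in the endothelial lipase gene Lipg (4.41 ± 0.29), Cav1 (3.43 ± 0.45) and Ch25h (1.95 ± 0.28) and were lower in the fatty acid transporter gene Slc27a1 (-0.83 ± 0.18), LECs rose in G0s2 (1.01 ± 0.31), Soat1 (0.94 ± 0.17) and Plin3 (0.84 ± 0.16), and pericytes in Fabp7 (3.27 ± 0.51), Apod (2.85 ± 0.56), Pparg (1.82 ± 0.34) and Lrpap1 (1.29 ± 0.19), with Scarb2 lower (-1.10 ± 0.20). Fabp2, an enterocyte transcript, was lower in LECs (-4.63 ± 1.18) and fibroblasts (-5.09 ± 0.66). The summed enterocyte markers, which include Fabp2, moved with it in fibroblasts. They were 5.19 to 12.7 CPM in the SI libraries and 0.309 and 0.304 in the cecum and large intestine. In LECs the sums overlapped between regions, at 26.5, 20.6, 10.4 and 12.3 in the SI, 17.7 in cecum and 11.95 in large intestine. The part of these markers was not tested. No other lipid gene was called between proximal and distal libraries.

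Genes whose levels followed each of the 10 most closely were found by Pearson's r of log2 levels over 93 class sums of 20 classes and clusters, a description in which sums share libraries, depth and free RNA. Gpihbp1 was followed by Wipf3 (r = 0.938), Mall and Myct1, Fabp5 by Sipa1l2 (r = 0.863), Pdgfb and Specc1, and Fabp4 by Acer2 (r = 0.853), Adgrl4 and Fam110d. Cd36 was followed by Rasa4 (r = 0.816), BC028528 and Smagp, and Scarb1 by the endothelial von Willebrand factor gene Vwf (r = 0.812), Plekha1 and Slc30a1. The best r was lower for Lpl (Adamts3, 0.798, then Fn1 and Crtap), Plin2 (Rnpep, 0.768, then Atp7a and Stx12), Abca1 (Nxpe4, 0.756, then Sec14l1 and Wsb2), Abcg1 (St3gal6, 0.756, then Ucp2 and Tle4) and Apoe (Csf2ra, 0.748, then Ddhd1 and Cadm1).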

How the data were processed

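The authors made gene-by-barcode matrices of raw UMI counts with Cell Ranger (8.1.0 per the labels, 8.0.1 in the matrix header) against mm39, and deposited them per library with hashtag counts. Their values are whole, and no normalization had been applied. Cells with 1000 to 7500 genes, 2500 to 40000 UMIs and at most 10% mitochondrial UMIs were kept, predicted doublets were removed, and cells were clustered in scanpy 1.11.5 on 2000 variable genes and 30 principal components. Leiden resolution 1.0 was used, since 0.5, the resolution of the study's methods, put myeloid and B cell markers in the same cluster. Thresholds of naming and gating were set after the clusters were seen. Classes rest on other genes of the same cells, so p-values describe the classes as drawn. Counts summed per library and class (at least 20 cells) were tested with edgeR 4.0.16 (R 4.3.3; quasi-likelihood, minimum count 10, TMM, Benjamini-Hochberg 0.05 over all genes tested), with the library as a block between classes and no covariate between regions. limma 3.58.1 and DESeq2 1.42.0 were alternatives, as were the filter, doublets, the gate, subtraction of 10% of UMIs as free RNA, the hashtag set and each library left out. The test script was tested on simulated data, whose spread was capped and can differ from that of the libraries. Over the comparisons it recovered 24% to 78% of 200 genes changed 2-fold, with 0% to 7.87% of calls false. Genes not called may therefore still differ. The 10 genes and the lipid lists were chosen with earlier results of these data known. By rule, each comparison names at most 4 other lipid genes that rose and 4 that fell, taking called genes in order of their fold change, if their mean in 1 group was at least 5 CPM and they moved the same way in every library, or, between regions, did not overlap. Likeness was computed over genes with a mean of at least 10 CPM, as log2(CPM + 1). Gene places are those of the GRCm39 annotation. Hashtag counts were used to describe the pooling of animals and not to split cells. A few genes that the rule would name are not reported here.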

Additional observations from a re-analysis of the deposited data

Results flagged for a closer look

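The region difference (cecum and large intestine over SI) differed between classes by an interaction test of edgeR across all genes for 12 results. Between fibroblasts and LECs the differences of log2 fold changes were 5.54 for Cd36, 3.46 for Fabp4, 3.84 for Lpl and 1.25 for Plin2. Between fibroblasts and pericytes they were 3.74 for Cd36 (edgeR adjusted p = 1.43e-07), 1.21 for Fabp4 (edgeR adjusted p = 0.0376), 2.48 for Abcg1 (edgeR adjusted p = 0.00108) and -2.22 for Apoe (edgeR adjusted p = 0.000635), where 5.56% of all genes were called. Between pericytes and LECs they were 2.27 for Fabp4 (edgeR adjusted p = 0.0092), 3.02 for Lpl (edgeR adjusted p = 0.000374), -2.43 for Abcg1 (edgeR adjusted p = 0.0348) and 2.03 for Plin2 (edgeR adjusted p = 0.00419). Fabp4 between fibroblasts and pericytes was called in 5 of 11 alternatives and Apoe in 8 of 11. Fibroblast markers in pericytes differed between libraries over the range given for that class, and their part was not tested.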

How the results depend on the processing

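Of the 10 genes, Fabp4 changed direction under an alternative that made or lost its call. It became higher in myeloid cells than in fibroblasts (2.11 on the log2 scale) without the gate, and measured -0.08 in universal fibroblasts against trophocytes with the gate alone. In all, 733 of 791 alternative values of called members stayed called in the same direction, 57 kept the direction without the call, and 1 was the reversal of Fabp4 with the gate alone. Of 698 values of members not called, 648 stayed so, 49 became called in the same direction, and 1 was the reversal of Fabp4 without the gate. The number of genes of 10 that kept their highest class was 9 to 10. Genes called numbered 2491 in universal fibroblasts against trophocytes, 1404 without the library block and 1499 to 2798 with libraries left out (1499 without proximal 2, 1558 without distal 2). Between proximal and distal SI, calls in LECs went from 0 to 31 with DESeq2, 174 with no filter, and 0 to 75 with libraries left out. In trophocytes they went from 41 to 165, 420 and 143 to 190, and to 25 without the gate. In SEMFs they went from 0 to 39, 277 and 0 to 54, and to 1 with doublets kept. The replicate block gave 242, 547 and 445 calls in LECs, trophocytes and SEMFs, with correlations of same-numbered libraries of 0.159, 0.31 and 0.421 over 2 pairs. The block called Abcg1 (-1.61), Apoe and Abca1 in LECs, Lpl in trophocytes, and Abcg1 and Apoe in SEMFs, all lower in the proximal libraries. Same-numbered SI libraries share a hashtag set, and the labels do not say that a number marks a shared batch or animal. In the large bowel, calls in LECs were 2994, 1742 within 1 hashtag set and 1282 to 3852 with libraries left out (1282 without the cecum, 1544 without the large intestine, 1878 without proximal 1). In fibroblasts they were 5856, 1557 and 3084 to 6566 (3572 without the cecum, 3084 without proximal 1, 3227 without proximal 2). In pericytes they were 1380, 314 and 456 to 2183 (456 without the cecum, 468 without the large intestine, 644 without proximal 1, 716 without proximal 2, 2183 without distal 1, 802 without distal 2), with 2179 under no filter and 909 after free RNA subtraction. The causes were not tested. Depth limits the myeloid, pericyte, blood endothelial and large bowel LEC sums, which hold few cells.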
